A study of Mus musculus with 6 samples.

Results

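The vertebrate neuromuscular junction is the synapse through which a motor nerve drives a muscle fibre. Acetylcholine released by the nerve opens a receptor made of subunits that are encoded by separate genes, in which the gamma subunit of embryonic and denervated muscle is replaced by the epsilon subunit in innervated adult muscle. The nerve secretes agrin, which binds LRP4 and thereby activates the kinase MuSK. DOK7 acts with MuSK inside the fibre, and rapsyn anchors the receptors in clusters.

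10 genes of this machinery were taken by symbol from the 24054 genes of the RSEM count table. They were the receptor subunit genes Chrna1, Chrnb1, Chrnd, Chrne and Chrng and the organizer genes Agrn, Lrp4, Musk, Dok7 and Rapsn. All 10 symbols were found, and 9 passed the low-count filter that left 12660 genes to test; Chrng did not pass. RNA sequencing had been done on gastrocnemius muscle of male C57BL/6 mice that either lacked or overexpressed the transcription factor IRF4 in skeletal muscle, with 3 libraries in each group. In the knockout (MI4KO), an Irf4 flox/flox allele was deleted by Myl1-cre. In the overexpressor (MI4OE), the same Myl1-Cre removed a stop cassette in front of an IRF4 transgene at Rosa26 (Rosa26-LSL-IRF4). All 6 libraries thus came from mice with Cre, which acts in muscle fibres, so that nerve, Schwann, vessel and connective tissue cells in the piece were not the cells targeted. No gastrocnemius with unaltered Irf4 was analysed here, and a difference between the groups therefore cannot be assigned to the loss or to the gain of IRF4. The labels give a high-fat diet for every sample, whereas the phenotypes in the study were measured on chow, so that the diet of these mice is in doubt, and the ages of these mice are not in the labels.

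The libraries held 18828605 to 29239585 expected counts. Counts of Irf4 were 6, 0 and 2 across MI4KO and 2864, 10557 and 5911 across MI4OE, which matched the labels. Markers of other tissue components differed between libraries. The summed level of 7 slow fibre genes, in CPM (counts scaled to the library total after TMM correction), was 6265 in MI4OE replicate 1, against 35.4 and 565 in the other MI4OE libraries and 23.5 to 110 in MI4KO. The sum of 6 adipocyte genes reached 903 CPM in MI4KO replicate 3, while the other 5 libraries spanned 112 to 326 CPM. Endothelial markers were above the MI4KO range in every MI4OE library, with sums of 147 to 237 CPM in MI4KO and 269 to 490 CPM in MI4OE over 10 genes. Fibroblast markers were likewise at 219 to 329 CPM and 390 to 537 CPM over 8 genes. In RNA from a whole piece of muscle, fewer cells of a type and less RNA per cell cannot be told apart.

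None of the 9 tested genes had an adjusted p under 0.05 in the edgeR quasi-likelihood test with Benjamini-Hochberg adjustment over all genes, a threshold passed by 0.0237% of the genes tested. Chrnd and Chrna1 were higher in MI4OE by more than 1.5-fold with an unadjusted edgeR p under 0.05. Of all tested genes, 6.64% met this looser criterion, 4.36% higher and 2.28% lower in MI4OE. That split of 552 higher and 289 lower genes was 298 and 330 without MI4KO replicate 1 and 305 and 285 without MI4OE replicate 1. The study, at the same fold and p cut-offs, reported the opposite balance, with fewer genes up than down in MI4OE. The cause of this difference was not tested. DESeq2 and edgeR's exact test each called 1 of the 9 genes, Chrnd, at an adjusted p under 0.05, a threshold passed by 0.877% and 0.885% of the genes they tested. The groups did not overlap in Chrnd, Chrna1 and Rapsn, all 3 higher in MI4OE, beside 12.9% of all tested genes without overlap, with 7.38% higher and 5.48% lower. Of the 9 genes, 6 had a higher and 3 a lower estimate in MI4OE, and their median (log2) was 0.24, against -0.00 over all tested genes.

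**Figure D1:**
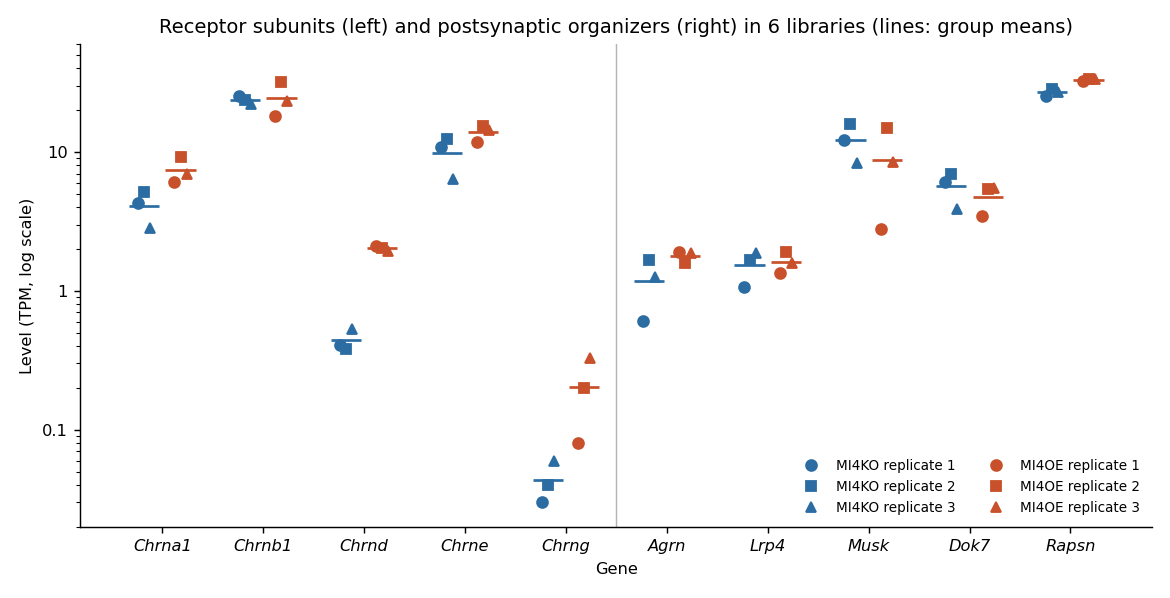
Level of each gene in TPM (transcript level per length and library, log scale) in the 3 MI4KO and 3 MI4OE libraries, with symbols for replicates and lines for group means. The Chrnd values of MI4OE (1.94 to 2.12 TPM) lie above those of MI4KO (0.38 to 0.53 TPM), and Musk in MI4OE replicate 1 lies at 2.81 TPM, below the other 5 libraries.

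Length-adjusted levels placed the 10 genes across more than 2 orders of magnitude. Rapsn, the receptor anchor, had the highest mean at 30.1 ± 3.67 TPM (SD, n = 6), followed by Chrnb1 at 24.1 ± 4.498 TPM. Rapsn exceeded Chrnb1 in 5 of 6 libraries. Then came Chrne at 11.9 ± 3.17 TPM and Musk at 10.4 ± 4.91 TPM, Chrna1 at 5.75 ± 2.22 TPM and Dok7 at 5.22 ± 1.32 TPM, and Lrp4 (1.57 ± 0.321 TPM), Agrn (1.49 ± 0.492 TPM) and Chrnd (1.24 ± 0.878 TPM). These means pool both groups. The order of some pairs, picked after the values were seen, turned between the groups, and no share over all pairs was computed. Musk was above Chrne and Dok7 above Chrna1 in all 3 MI4KO libraries, and both were below in all 3 MI4OE libraries. Chrnd was below Lrp4 and Agrn in all 3 MI4KO libraries and above both in all 3 MI4OE libraries. Chrng was lowest at 0.123 ± 0.118 TPM, and Chrnd was above it in 6 of 6 libraries.

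Chrnd encodes the delta subunit, which is part of both the embryonic and the adult receptor. Its level was 0.90, 0.59 and 0.97 CPM in MI4KO replicates 1 to 3 and 4.13, 3.39 and 3.31 CPM in MI4OE replicates 1 to 3. Every MI4OE library was above every MI4KO library, and the values within each group were close. The means were 0.823 ± 0.201 CPM and 3.61 ± 0.453 CPM (SD, n = 3 each). On the log2 scale MI4OE differed by 2.12 (SE 0.30), or 4.35-fold. The unadjusted edgeR p was 1.28e-04 and the adjusted p 0.216, while DESeq2 gave an adjusted p of 5.3e-06 and edgeR's exact test one of 5.5e-06. The adjusted p ran up to 0.841 over 17 alternatives, of which 2 passed the threshold. The values rest on 14.95 to 29.05 expected counts per MI4KO library and 74.93 to 97.24 per MI4OE library. The log2 fold change kept its sign in all 17 alternatives, of which limma on log2(TPM + 1) gave the lowest value at 1.08. It was 1.93 to 2.25 when 1 library was left out. Without MI4KO replicate 3 and MI4OE replicate 1, an alternative chosen after seeing the data, it was 2.15. The endothelial and fibroblast sums moved in the same direction as Chrnd, with 10 of 10 and 8 of 8 genes higher, and their part in the result was not tested.

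Chrna1 encodes the alpha subunit that carries the acetylcholine binding site and is present in both receptor forms. It measured 13.9, 12.0 and 7.59 CPM across MI4KO and 17.4, 22.7 and 17.4 CPM across MI4OE. The groups did not overlap, with the lowest value in MI4KO replicate 3, the library with the highest adipocyte sum. MI4OE minus MI4KO came to 0.78 in log2 (SE 0.25), or 1.72-fold, with an unadjusted edgeR p of 0.0150 and an adjusted p of 0.546. Leaving out MI4KO replicate 3 brought this to 0.55, and Chrna1 no longer met the looser criterion. A share of 3.02% of its 50-base stretches, the read length, also occurred in GENCODE transcripts of other genes. GENCODE is another annotation than that of the counts. Expected counts on the single transcript of Chrna1 were fractional (340.4 in MI4KO replicate 1). Those of Chrnd were fractional too (21.81 in MI4KO replicate 1), although it shared no such stretch. Some reads of both may thus have been divided between genes.

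Promoter sequence is shown for Chrna1 and for the Chrne and Chrng pair, since Chrna1 was the more abundant of the 2 genes that met the looser criterion and the pair is exchanged during development. Each line gives the 250 bases before the transcription start, 5′ to 3′ on the gene's strand, from RefSeq (GRCm38.p6). Capitals mark E-boxes (CANNTG, both strands), the motif bound by myogenic basic helix-loop-helix factors, and in Chrne also the N-box (CCGGAA), bound by Ets family factors. Chrna1 is at chr2:73580339-73580588 on the minus strand, Chrne at chr11:70619195-70619444 on the minus strand and Chrng at chr1:87205561-87205810 on the plus strand.
Chrna1: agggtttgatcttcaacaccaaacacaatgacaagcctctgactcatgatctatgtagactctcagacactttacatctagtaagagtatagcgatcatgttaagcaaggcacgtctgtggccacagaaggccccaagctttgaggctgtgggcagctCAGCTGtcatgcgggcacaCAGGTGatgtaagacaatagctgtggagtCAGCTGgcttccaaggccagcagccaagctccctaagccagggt
Chrne: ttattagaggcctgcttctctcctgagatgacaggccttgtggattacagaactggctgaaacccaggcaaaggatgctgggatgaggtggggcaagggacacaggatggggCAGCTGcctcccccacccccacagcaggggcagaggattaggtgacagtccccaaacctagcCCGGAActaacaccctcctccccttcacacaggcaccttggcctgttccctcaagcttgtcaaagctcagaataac
Chrng: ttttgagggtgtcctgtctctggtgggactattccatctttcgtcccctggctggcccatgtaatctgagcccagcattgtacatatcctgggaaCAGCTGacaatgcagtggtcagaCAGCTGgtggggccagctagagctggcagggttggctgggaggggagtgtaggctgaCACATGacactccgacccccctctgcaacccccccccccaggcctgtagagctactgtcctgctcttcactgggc

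The RefSeq table held promoters for 7 of the 10 genes, 9 sequences in all because Agrn and Dok7 had a pair each, while Chrnd, Rapsn and Lrp4 had none. An E-box stood in 7 of the 9, and in 66.2% of all 32851 promoters of the same length. The E-box CAGCTG, which is counted within CANNTG, stood in 4 of the 9 (Chrna1, Chrne, Chrng and Musk) and in 4271 of the 32851 promoters. Its copies lay 92 and 44 bases before the start in Chrna1, 155 and 132 bases in Chrng, 138 bases in Chrne and 68 bases in Musk. The N-box stood only in Chrne among the 9, 76 bases before the start, and in 12.0% of all promoters. The core of the interferon-stimulated response element (GAAA, any 2 bases, then GAAA, on either strand), a motif that IRF proteins bind, was in none of the 9 windows and in 2.98% of all promoters.

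Chrne encodes the epsilon subunit of the adult receptor. It measured 12.2, 10.02 and 6.08 CPM across MI4KO and 12.0, 13.2 and 12.8 CPM across MI4OE. The groups overlapped, because MI4KO replicate 1 was above MI4OE replicate 1. In log2 units the difference reached 0.43 (SE 0.25) with an adjusted edgeR p of 0.767, and it was 0.17 without MI4KO replicate 3.

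Chrng, which encodes the gamma subunit of the embryonic receptor, had 1, 1 and 2 counts in MI4KO and 2, 6 and 8 counts in MI4OE. The MI4KO libraries and MI4OE replicate 1 were under 3 counts, the floor used here for detection, which corresponds to 0.101 to 0.148 CPM. In TPM the gene was at 0.03, 0.04 and 0.06 in MI4KO and at 0.08, 0.20 and 0.33 in MI4OE. Summed over libraries and scaled for library size, 16 against 4 counts gave a ratio of 4.44 with an exact 95% interval of 1.43 to 18.2, which covers counting error only and not the spread between animals. This ratio was chosen after seeing the data. Without the low-count filter the edgeR test gave a log2 fold change of 2.03, an unadjusted p of 0.0499 and an adjusted p of 0.685.

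The share of Chrng in the sum of Chrng and Chrne describes the balance between embryonic and adult receptor subunits. In TPM it was 0.277%, 0.324% and 0.923% in MI4KO and 0.668%, 1.28% and 2.23% in MI4OE. The groups overlapped, as MI4KO replicate 3 was above MI4OE replicate 1. The means were 0.508% ± 0.360 and 1.39% ± 0.784 (SD, n = 3 each), a difference of 0.883 percentage points with a two-sided exact permutation p of 0.2. With 3 libraries per group that test cannot give a p below 0.1. The difference was 0.466 points without MI4OE replicate 3 and 1.24 points without MI4OE replicate 1. In counts, there were 298, 253 and 90.5 Chrne counts for each Chrng count in MI4KO and 122, 63.0 and 36.3 in MI4OE, so that the adult subunit was in excess in all 6 libraries. Over the summed counts the Chrng share was 0.543% in MI4KO (exact 95% interval 0.148% to 1.39%) and 1.73% in MI4OE (0.990% to 2.79%). These intervals overlap and cover counting error only.

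**Figure D2:**
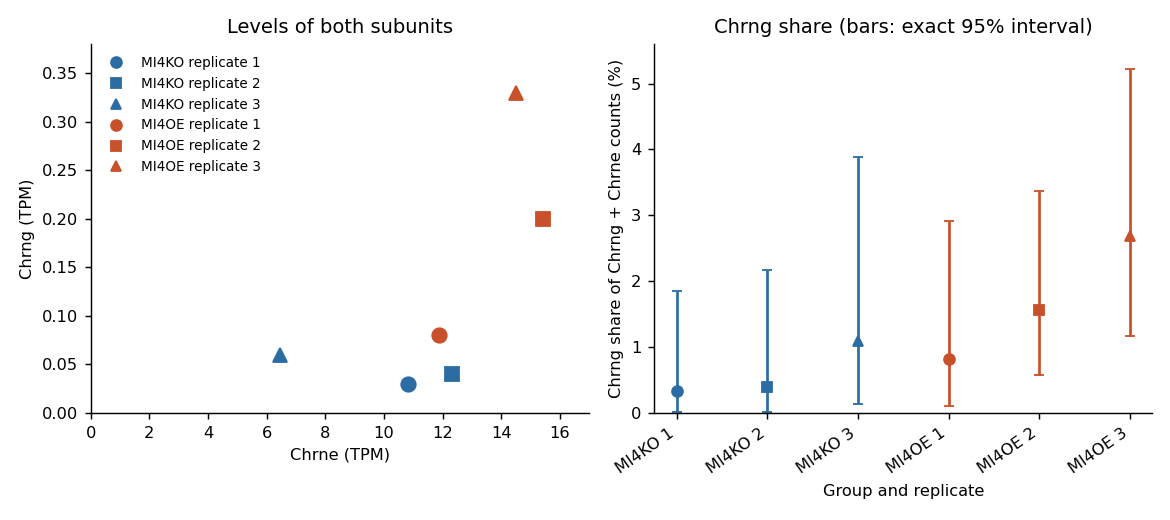
Left, Chrng against Chrne in TPM in each library; right, Chrng counts as a percent of Chrng plus Chrne counts in each library, with exact 95% intervals of the counts. The intervals of all 6 libraries overlap, and the share is highest in MI4OE replicate 3.

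Chrnb1, the gene of the beta subunit through which receptors are tied to rapsyn, measured 39.4, 26.8 and 28.7 CPM across MI4KO and 25.4, 37.7 and 28.4 CPM across MI4OE. The groups overlapped over nearly their whole range. On the log2 scale MI4OE differed by -0.05 (SE 0.22) with an adjusted edgeR p of 0.974, and its sign turned in 5 of 17 alternatives, among them total counts without TMM factors.

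Ratios of subunits were formed in TPM within a library. They were chosen after the values were seen and are descriptions, so the exact permutation p computed for them is not given. Chrnd per Chrnb1 was 0.0162, 0.0159 and 0.0240 in MI4KO and 0.116, 0.0642 and 0.0833 in MI4OE, a 4.64-fold difference of geometric means. Chrnd per Chrne was 3.20-fold higher and Chrnd per Chrna1 2.55-fold higher in MI4OE. Chrna1 per Chrnb1 was 1.82-fold higher and Chrna1 per Chrne 1.25-fold higher. Each of these 5 ratios was higher in every MI4OE library than in any MI4KO library. All hold Chrnd or Chrna1, whose groups did not overlap, so they are not independent of that result. No share over all pairs of genes was computed. Agrn per Lrp4 was 0.575, 1.01 and 0.672 in MI4KO and 1.41, 0.838 and 1.19 in MI4OE, so that the groups overlapped.

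**Figure D3:**
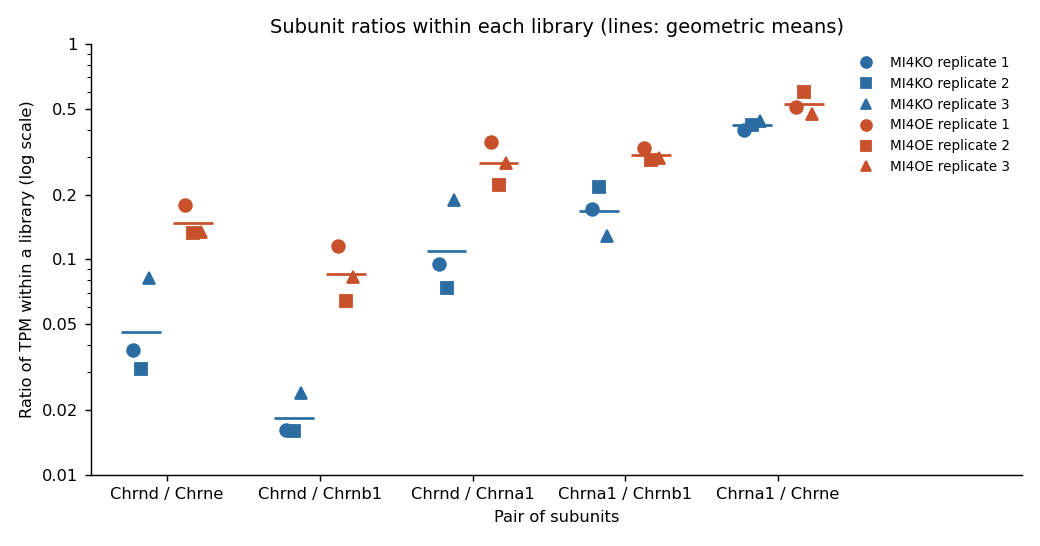
Ratio of the TPM of 2 receptor subunit genes within each library (log scale), for MI4KO and MI4OE, with lines at the geometric means. Each of the 5 ratios is higher in every MI4OE library than in every MI4KO library, by 1.25-fold to 4.64-fold between the means. All hold Chrnd or Chrna1, genes whose groups did not overlap.

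Among the organizers, Rapsn measured 28.9, 23.8 and 26.0 CPM across MI4KO and 33.6, 29.5 and 30.0 CPM across MI4OE. The groups did not overlap, but the gap was small. MI4OE minus MI4KO came to 0.24 in log2 (SE 0.15) with an adjusted edgeR p of 0.772.

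Agrn, which encodes the nerve-derived ligand and is also made by muscle and other cells, measured 3.40, 6.78 and 5.81 CPM across MI4KO and 9.49, 6.75 and 8.21 CPM across MI4OE. MI4OE replicate 2 was just under MI4KO replicate 2, so that the groups overlapped. In log2 units the difference reached 0.61 (SE 0.28) with an adjusted edgeR p of 0.686, and it was 0.36 without MI4KO replicate 1.

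Lrp4, the receptor for agrin, measured 6.06, 6.30 and 8.90 CPM across MI4KO and 6.89, 8.39 and 7.33 CPM across MI4OE. All MI4OE values lay within the MI4KO range. On the log2 scale MI4OE differed by 0.09 (SE 0.21) with an adjusted edgeR p of 0.945, and it was -0.02 without MI4KO replicate 1.

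Musk, the gene of the receptor kinase, measured 29.9, 28.6 and 17.3 CPM across MI4KO and 6.15, 28.4 and 16.5 CPM across MI4OE. MI4OE replicate 1, the library rich in slow fibre transcripts, had the lowest level, and the other 2 MI4OE libraries were close to the MI4KO range or within it. MI4OE minus MI4KO came to -0.57 in log2 (SE 0.49) with an adjusted edgeR p of 0.847. It was -0.18 without MI4OE replicate 1 and -1.16 without MI4OE replicate 2, where it met the looser criterion. The part of fibre type in this difference was not tested.

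RSEM divided the Musk counts over 6 annotated transcripts. All 125 counts of MI4OE replicate 1 were assigned to NM_001037130, a transcript with 0 counts in the other 5 libraries. In the MI4KO libraries 64.4%, 50.8% and 70.2% of the counts were assigned to NM_010944, and in MI4OE replicates 2 and 3 the share was 63.3% and 28.1%. In MI4OE replicate 3 the remaining 71.9% went to NM_001037128. Reads of 50 bases that fall in sequence common to several transcripts are divided by the model, so these shares are estimates and carry no replicate test.

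**Figure D4:**
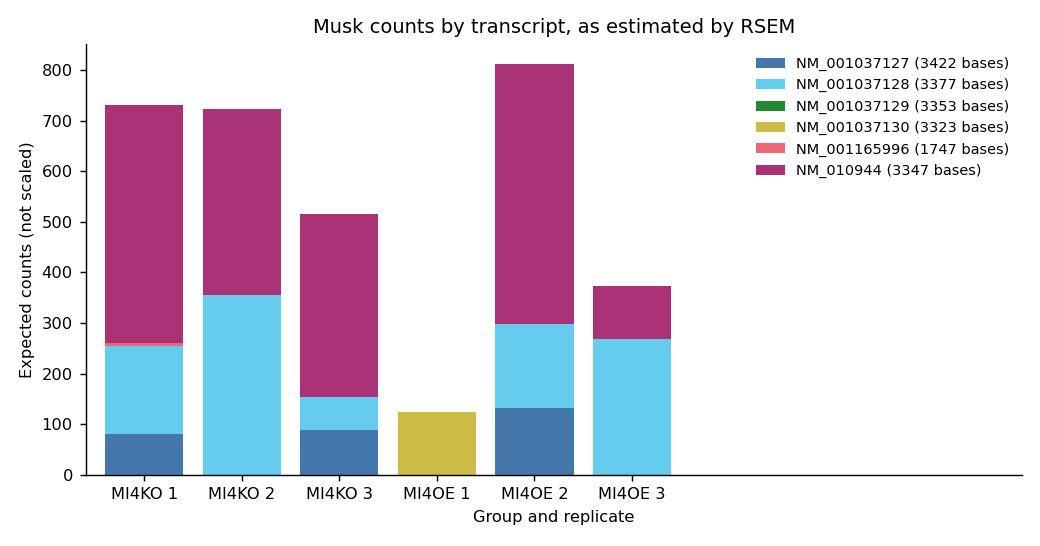
Expected counts of Musk in each library, not scaled for library size, stacked by the transcript to which RSEM assigned them. MI4OE replicate 1 has 125 counts, all on NM_001037130, and NM_010944 takes 28.1% to 70.2% in the other 5 libraries.

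Dok7, which encodes the cytoplasmic activator of MuSK, measured 11.1, 9.07 and 5.94 CPM across MI4KO and 5.56, 7.45 and 7.77 CPM across MI4OE. The groups overlapped, since MI4KO replicate 3 was below 2 of the MI4OE libraries. In log2 units the difference reached -0.33 (SE 0.26) with an adjusted edgeR p of 0.843. Leaving out MI4KO replicate 1 gave -0.12, and leaving out MI4KO replicate 3 gave -0.55. Relative to Rapsn in TPM, the geometric mean in MI4OE was 0.489 times that in MI4KO for Musk and 0.686 times for Dok7. These ratios were again chosen after the values were seen and are given without a p. The groups overlapped in both ratios, and without MI4OE replicate 1 the value for Musk was 0.770.

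Other genes of the synapse were followed in a list of 28, of which 26 were tested. No gene of the list passed an adjusted edgeR p of 0.05, while 7 had an unadjusted p under 0.05, all higher in MI4OE, beside 7.58% of all tested genes in either direction. Of the 26 estimates, 15 were higher and 11 lower, with a median log2 fold change of 0.25. Over the same threshold, 6 of 10 endothelial and 7 of 8 fibroblast genes were higher too, and their part in the synapse list was not tested. Ufsp1, a gene enriched at the synapse, measured 15.02, 13.4 and 12.4 CPM across MI4KO and 19.6, 25.7 and 23.5 CPM across MI4OE. The groups did not overlap. A log2 difference of 0.75 (SE 0.17) came with an adjusted edgeR p of 0.433, which was 0.0463 with DESeq2.

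Nid2, a basement membrane component, had the highest log2 fold change of the 26 genes at 1.13 with a standard error of 0.33. Erbb2, a receptor subunit for neuregulin, stood at 0.70. Etv5, an Ets factor of synaptic nuclei, stood at 0.69 and Pak1, a kinase, at 0.61. Colq, which anchors acetylcholinesterase, stood at 0.48, and the laminin gene Lamb2 at 0.43. Their adjusted edgeR p ran from 0.521 to 0.654. Of the abundant genes of the list, the sodium channel gene Scn4a was at -0.21, Ctnnb1 at -0.05 and Dnaja3 at -0.11, and their groups overlapped.

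**Figure D5:**
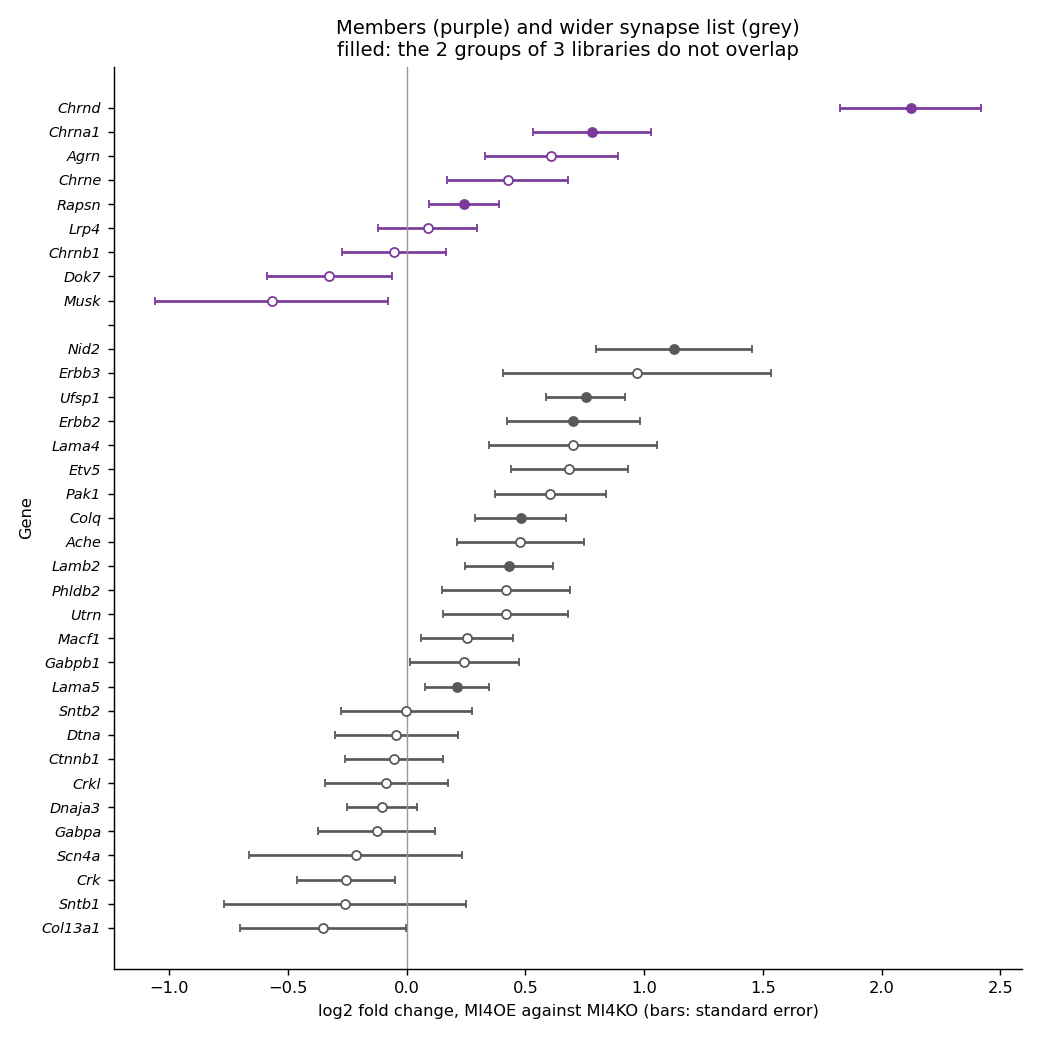
Log2 fold change of MI4OE against MI4KO with its standard error (edgeR) for the 9 tested genes of the receptor and its organizers (purple) and for tested genes of the wider synapse list (grey). Filled symbols mark genes whose 2 groups do not overlap; Chrnd stands farthest to the right at 2.12.

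Genes that respond to denervation were followed as a list of 13, of which 10 were tested. Most are known to rise after denervation, but Hdac9 and Dach2 are known to fall, so the counts and the median of the list have no single expected direction. Dach2 was not tested. The 10 estimates came out with 4 higher, 6 lower and a median of -0.20 in log2. This median was 0.10 without MI4KO replicate 1, -0.00052 without MI4KO replicate 2 and -0.06 with total counts. Trim63, a ubiquitin ligase of muscle atrophy, measured 810, 262 and 203 CPM across MI4KO and 158, 185 and 204 CPM across MI4OE. MI4KO replicate 1 stood above all other libraries, and the groups overlapped. Its log2 fold change was -1.22 with an unadjusted edgeR p of 0.0413 and an adjusted p of 0.626, and it was -0.36 without MI4KO replicate 1. Fbxo32 was at -0.43, Myod1 at -0.31, Cdkn1a at -0.25 and Gadd45a at -0.15 on the log2 scale. The 4 higher genes, named after their values had been seen, were Myog and Ncam1 at 0.32 each, Hdac9 at 0.27 and Runx1 at 0.01. None of the 10 passed the adjusted threshold in edgeR.

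Markers of the nerve side were sparse. Of 10 motor nerve terminal genes 2 were tested, and 4 were under 3 counts in every library, of which 2 had no count. Syp measured 5.65, 5.11 and 7.59 CPM across MI4KO and 5.36, 1.96 and 2.96 CPM across MI4OE, and Stmn2 measured 1.43, 1.11 and 1.51 CPM, then 6.59, 1.47 and 2.34 CPM. Both overlapped between groups. Stmn2, the higher of the 2 in MI4OE, met the looser criterion, with its highest value in MI4OE replicate 1. All 11 Schwann cell genes had a higher estimate in MI4OE, with sums of 40.1 to 148 CPM in MI4KO and 98.0 to 268 CPM in MI4OE, among them Pmp22 with a log2 difference of 0.79. MI4KO replicate 2 lay within the MI4OE range. Of 11 neuronal nicotinic subunit genes, 5 were under 3 counts in every library, 3 of them without a count, and Chrna10 was tested, with a log2 fold change of 0.16. Chrna2, named after its values had been seen, was at 6.05 CPM in MI4OE replicate 1, at 1.77 CPM in MI4OE replicate 3 and at 0.34 CPM or less in the other 4 libraries.

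Other lists described the muscle around the synapse. In 6 tested genes of satellite cells and developing fibres, 4 were higher and 2 lower, with Actc1 at 0.26 and Cdh15 at -0.06 in log2. Myh8 and Myh3, perinatal and embryonic myosin genes, were added after their values had been seen. Myh8 met the looser criterion at 2.20 (unadjusted edgeR p of 0.0441), but was at 24.7 CPM in MI4OE replicate 1 and at 1.38 to 3.11 CPM in the other 5 libraries, and without MI4OE replicate 1 the difference was 0.27. Myh3, not tested, was at 10.4 CPM in MI4OE replicate 1, at 5.03 CPM in MI4OE replicate 3 and at 0.30 CPM or less elsewhere. Glycosylation genes of congenital myasthenia gave 1 higher and 4 lower of 5, with Gfpt1 and Alg2 both at -0.20. For endothelium, 10 of 10 genes were higher, Cdh5 at 1.04 and Pecam1 at 0.61, and for fibroblasts 8 of 8, Dcn at 0.81 and Col3a1 at 0.68. All 6 adipocyte genes were lower, Fabp4 at -0.66 and Cfd at -4.07. Of these, 5 met the looser criterion and 4 did not overlap between groups, and their median was -3.64 in log2 and -2.29 without MI4KO replicate 3. In addition, all 7 slow fibre genes were higher, Myh7 at 6.35 and Myl2 at 6.20, while the slow fibre groups overlapped. The median of the slow fibre genes was 6.30 in log2 and 3.26 without MI4OE replicate 1. Of 10 fast fibre genes 8 were lower, Myh4 at -0.33 and Atp2a1 at -0.32, and of 6 muscle identity genes 5, Acta1 at -0.17 and Ckm at -0.40. Macrophage genes split into 2 higher and 3 lower, with the most abundant, Csf1r and Cd163, at 0.31 and 0.57 and Mrc1, Cd68 and Adgre1 lower at -0.55, -0.04 and -1.17. Of these 5 genes, Adgre1 was the 1 that met the looser criterion. The 3 lower genes were named after their values had been seen. No gene of these lists had an adjusted edgeR p under 0.05, and what part the surrounding cells have in the receptor and synapse results was not tested.

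Across the 6 libraries, the highest Pearson's r of log2 CPM among all pairs of tested members was 0.93, between Chrna1 and Chrne. Next came 0.86 between Chrnd and Rapsn and 0.78 between Musk and Dok7, and the lowest was -0.74 between Chrnb1 and Agrn. All other pairs lay between, such as Chrna1 with Musk at -0.08. The points share group, library and depth, and these values are descriptions. The mean pattern of the tested members was also compared with other tested genes at a mean CPM of at least 1. The highest r over 6 libraries were for Cxcl14 (0.97), Fbln7 (0.97), Pias3 (0.96), Eml4 (0.96) and Fam3a (0.95). These are the top of a search over many genes, so such values can arise without a link to the synapse. The mean also joins members that ran against each other, such as Dok7 and Agrn at -0.71.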

How the data were processed

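Libraries were made from gastrocnemius with a stranded mRNA kit and read as 50-base single reads. The authors, per the labels and their methods, aligned reads with Bowtie2 2.1.0 and estimated expected counts and TPM per gene and transcript with RSEM 1.2.15 on UCSC transcripts; the genome build is not given in the sources used here. The deposited expected counts and TPM were used; effective lengths from the same deposited tables served in 1 alternative. Counts of the 6 libraries were rounded, filtered (filterByExpr, minimum count 10, minimum total 15), scaled by TMM and tested with edgeR 4.0.16 (quasi-likelihood, R 4.3.3) on 12660 genes, with Benjamini-Hochberg adjustment. Single values were compared by exact permutation tests, and intervals are exact (Clopper-Pearson, 95%). Totals ran from 18828605 to 29239585 counts. Intervals and floors cover counting error only.

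Groups came from the genotype labels. Each library has its own number in the labels and the study describes 3 muscles from mice of each group; the labels name neither animals nor a batch, so p-values measure the spread between these samples. Genes were named by a rule covering all 10 members, synapse and denervation genes with an unadjusted p under 0.05, the most abundant genes of each list and the 5 most similar genes. Some genes that this rule names are not reported here. Members and lists were chosen with earlier results of these data known. Alternatives were other scalings and filters, bias-adjusted deviances, DESeq2 1.42.0, edgeR's exact test, limma 3.58.1 on log2(TPM + 1) and log2(TPM + 0.1), and fits without each library. The exact test used dispersions estimated with the group design; classic dispersions were not used and could give another count. The tests were checked on simulated data.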

Additional observations from a re-analysis of the deposited data

How the results depend on the processing

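Of 17 alternatives, 16 were planned. Genes past the adjusted threshold numbered 3 in the edgeR quasi-likelihood test, 111 in DESeq2 and 112 in edgeR's exact test, and members called went from 0 to 1 (Chrnd) in each of the last 2. Leaving out 1 library gave 1 to 4 genes. The looser criterion (1.5-fold, unadjusted p) was met by 841 genes, by 468 with limma on log2(TPM + 1) and by 590 to 1314 when 1 library was left out, the highest without MI4OE replicate 2. Members meeting this criterion, 2 with all libraries, numbered 1 to 3 with 1 library left out. Chrna1 was lost without MI4KO replicate 3. Chrne, Agrn and Musk were added without MI4KO replicate 1, MI4KO replicate 2 and MI4OE replicate 2. The log2 fold change of Chrnb1 turned to 0.010 and 0.011 with limma on log2(TPM + 0.1) and log2(TPM + 1), 0.049 with total counts, 0.13 without MI4KO replicate 1 and 0.060 without MI4OE replicate 1, in a range of -0.24 to 0.13 with 1 library left out. Lrp4 turned to -0.017 without MI4KO replicate 1 and ranged up to 0.27 with 1 library left out. It was 0.34 without both MI4KO replicate 3 and MI4OE replicate 1. The adjusted p of Irf4 was 0.0587 without MI4KO replicate 1. The difference in Chrng share stayed between 0.466 and 1.24 percentage points with 1 library left out, lowest without MI4OE replicate 3. The cause of these shifts was not tested. No paired analysis was possible because numbers given to replicates follow deposition order alone. At 1 to 8 counts of Chrng per library, depth limits any statement on its level.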
